A study of Bos taurus with 28 samples.

Results

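The comparison reported here set 10 heifers inseminated with semen of high-fertility (HF) bulls against 10 heifers inseminated with semen of low-fertility (LF) bulls, 20 of the 28 heifers of the series. Heifers were assigned by the treatment in their sample labels. The other 8 heifers were controls (CTRL) that received no semen, and they stood outside the fits, so their levels are given as a description only. All 28 animals were synchronized the same way, with an intravaginal progesterone device, gonadotrophin-releasing hormone and prostaglandin F2 alpha, and all were sampled at slaughter, 12 h after a fixed-time insemination or, in CTRL, without one. The semen was frozen-thawed and came from 10 Holstein-Friesian bulls chosen for their adjusted pregnancy rate in the field, 5 per treatment with 2 heifers each. The bull is therefore the unit that carries the fertility class, and only 5 bulls stand behind each treatment. Each bull's pair of heifers was split between the study replicates, so that heifers 1 to 5 of HF and of LF formed study replicate 1 and heifers 6 to 10 study replicate 2. Sample labels give the breed tag Holstein-Freisan, whereas the study's animal table lists crosses, with 4 Charolais, 4 Limousin and 2 Belgian blue crosses in HF and 5 Charolais, 3 Limousin, 1 Aberdeen angus and 1 Simmental cross in LF. A single punch of intercaruncular endometrium per heifer, dissected away from the myometrium, was used for stranded mRNA sequencing.

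The question was whether the endometrium, the inner lining of the uterus, responds differently to sperm of bulls that differ in fertility. Sperm and seminal fluid that enter the uterus set off a transient inflammation in cattle, in which epithelial cells release cytokines and chemokines, prostaglandins are made from arachidonic acid, and neutrophils move into the lumen and clear sperm. Interleukin-1 is an early signal of such a response, since it is stored or quickly made by epithelial cells and acts through a shared receptor on NF-kB. The response is self-limited and gives way to a lining that can receive an embryo.

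The total count per heifer was 14872812 to 25633259, with medians of 19794372.5 in HF and 18965105 in LF. Among the 90 pairs of heifers within a treatment the lowest chi-square per degree of freedom was 25.3, so no pair was as alike as repeated counts of 1 library would be. The label of uterine tissue was checked on the genes with a name. The 4 named stromal markers summed to 3340 to 5500 CPM (normalized for library size) in HF and to 3000 to 5220 CPM in LF, and the epithelial markers KRT8 and ESRP1 were present in every heifer. The 8 named smooth muscle markers summed to 763 to 6310 CPM in HF and 536 to 4990 CPM in LF, with medians of 1340 and 2090 CPM, so both treatments held muscle-poor and muscle-rich punches. Taken singly, 7 of the 8 had an edgeR log2 fold change (HF over LF) above 0, as did 43.2% of all genes tested. Their median was 0.09, and 0 of the 8 had an unadjusted p under 0.05. No marker of red blood cells, platelets or mast cells had a name, and of 26 neutrophil markers only VNN2 was named and tested. In bulk tissue, fewer cells of a type and less RNA per cell cannot be told apart.

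Few genes separated the treatments. At an adjusted p under 0.05, edgeR's quasi-likelihood test called 0 of 14793 genes (0%), with a smallest adjusted p of 0.357. Unadjusted, 1171 genes (7.92%) had an edgeR p under 0.05, of which 491 (3.32%) were higher and 680 (4.60%) lower in HF. DESeq2, the tool of the study, called 26 of the 18133 genes with an adjusted p (0.143%), 13 higher and 13 lower in HF. It had 1534 genes at an unadjusted p under 0.05. The study's own run, with an earlier DESeq2 version and without non-coding genes, reported more genes in this comparison. RUNX1T1, ZNF711, PHTF2, RCC2 and LYN were called there but are not among the 26 here. Of these 26 genes, 24 passed the count filter of edgeR and had the same direction there, 23 of them with an unadjusted p under 0.05 but with adjusted p-values of 0.357 to 0.797. The DESeq2 folds were 1.19 to 40.2 among the higher genes and 1.29 to 29.6 among the lower genes, and 6 genes in the first set and 8 in the second differed by more than 2-fold. Across all genes tested in edgeR the median log2 fold change (log2FC, HF over LF) was -0.03, and 56.8% of the genes had a log2FC below 0. In a single simulated data set, 40 of 192 DESeq2 calls were false, a share above its threshold. Of 134 edgeR calls, 4 were false, a share below that threshold. Of 67 genes changed 1.5-fold there, edgeR recovered 20 and DESeq2 30. Of 67 changed 2-fold, edgeR recovered 49 and DESeq2 57, so 0 edgeR calls do not show that no gene differed. The simulated counts were drawn at edgeR's own estimates of spread, with all heifers independent. The genes described as called are calls of DESeq2 that edgeR did not make. The principal components did not part the treatments either. On the first component, which held 43.6% of variance over the 500 genes that varied most, the mean score of HF exceeded that of LF by 1.82 (2-sided permutation test, p = 0.812), and this difference turned sign without LF1, LF7, LF8, HF4 or HF8 (-1.39 to 5.03 over the 20 heifers left out).

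**Figure D1:**
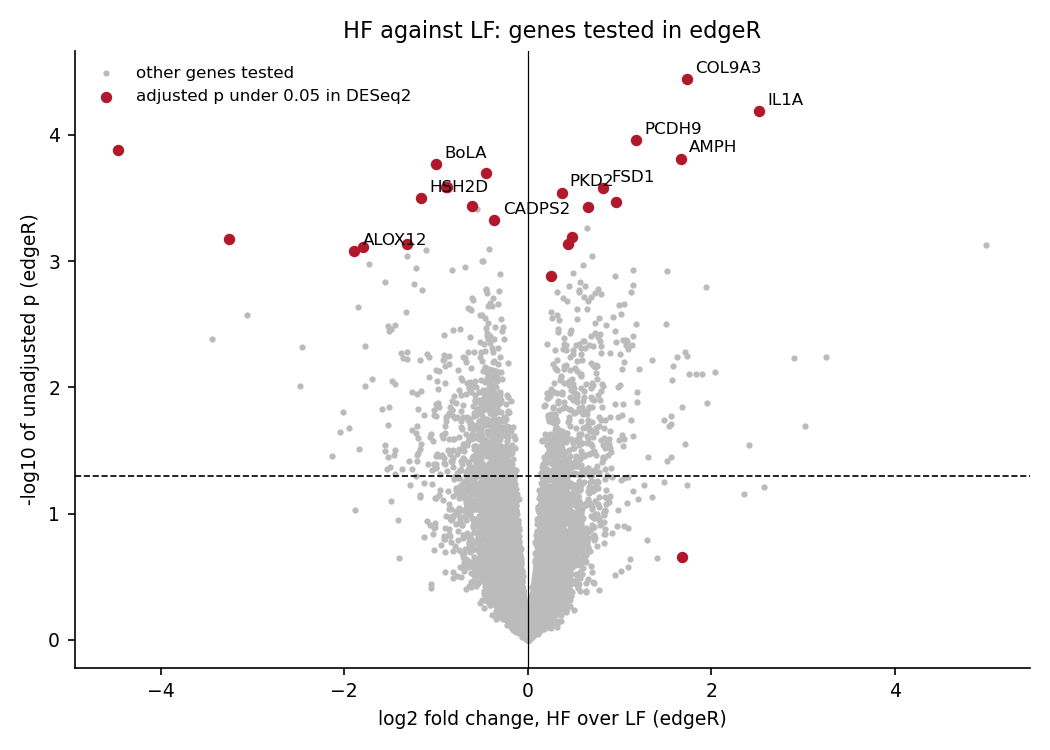
Each point is 1 of the 14793 genes tested in edgeR, with its log2 fold change (HF over LF) on the x axis and the -log10 of its unadjusted p on the y axis. The dashed line marks an unadjusted p of 0.05, and red points are the 24 genes tested in edgeR that DESeq2 called. COL9A3 and IL1A stand highest on the right, and the red point below the line is ENSBTAG00000047700 (edgeR log2FC 1.68).

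IL1A (ENSBTAG00000010349) encodes interleukin-1 alpha, the inflammatory cytokine that epithelial cells release when stressed or damaged. Its level was 1.22 CPM in the lowest, 3.38 CPM in the median and 14.97 CPM in the highest HF heifer. In LF heifers it was 0.164, 0.737 and 1.63 CPM. Those levels rest on 955 counts in all HF heifers and 157 in all LF heifers, 3 to 29 per LF heifer, which limits the fold. All 10 HF heifers lay above the LF median and 6 lay above every LF heifer, with HF9 and HF2 highest, so the treatments overlapped only at the low end of HF. DESeq2 gave a 5.77-fold higher level in HF (log2FC 2.53, SE 0.48, adjusted p = 0.00107) and edgeR a log2FC of 2.52 (SE 0.51, adjusted p = 0.357). The log2FC was 2.88 in study replicate 1 and 2.32 in study replicate 2, and the means of the 5 HF bulls (2.32 to 9.63 CPM) did not overlap those of the 5 LF bulls (0.483 to 1.49 CPM). In CTRL heifers the levels were 0.546 to 5.05 CPM with a median of 0.910 CPM, close to LF. Of 21 genes of the interleukin-1 system, only IL1A, IRAK2 and IL1R1 had a name. IRAK2, a kinase of the interleukin-1 receptor complex, stood at 11.99 to 30.9 CPM (median 16.6) in HF and 7.43 to 16.3 CPM (median 14.4) in LF, with an edgeR log2FC of 0.38 (SE 0.18, unadjusted p = 0.0440, adjusted p = 0.615). The receptor gene IL1R1 had medians of 24.1 CPM in HF and 25.7 CPM in LF, with ranges that overlapped almost wholly. The epithelial markers KRT8 and ESRP1 moved the other way, with a median summed level of 175 CPM in HF and 251 CPM in LF, and their part in the difference was not tested.

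COL9A3 (ENSBTAG00000015581), the alpha 3 chain of type IX collagen, a fibril-associated collagen best known from cartilage, had the smallest p in both tools. Its level was 11.8, 31.6 and 101.9 CPM in the lowest, median and highest HF heifer and 7.16, 12.6 and 19.4 CPM in LF heifers. All HF heifers but HF5 and HF8, 8 in number, lay above every LF heifer. The fold was 3.34 in DESeq2 (log2FC 1.74, SE 0.33, adjusted p = 0.00107), and edgeR gave a log2FC of 1.74 (SE 0.33, adjusted p = 0.357). Both study replicates showed it, with log2FC of 1.57 and 1.89, and bull means were 17.3 to 71.2 CPM in HF and 7.36 to 16.3 CPM in LF. The CTRL median was 13.2 CPM with a range of 4.47 to 37.2 CPM. Of 13 named members of the matrix list, 2 (COL9A3 and the laminin chain gene LAMB1) were higher at an unadjusted p under 0.05 and 0 were lower. Of all genes tested, 3.32% were higher and 4.60% lower at that p. The list's median log2FC was -0.02, against -0.03 for all genes tested. In this and the other gene lists only genes with a name could be counted. Of the 1495 named genes tested, 10.4% had an unadjusted edgeR p under 0.05 in either direction, and their median log2FC was -0.0014. Shares of all genes tested are therefore not a matched background for the lists.

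**Figure D2:**
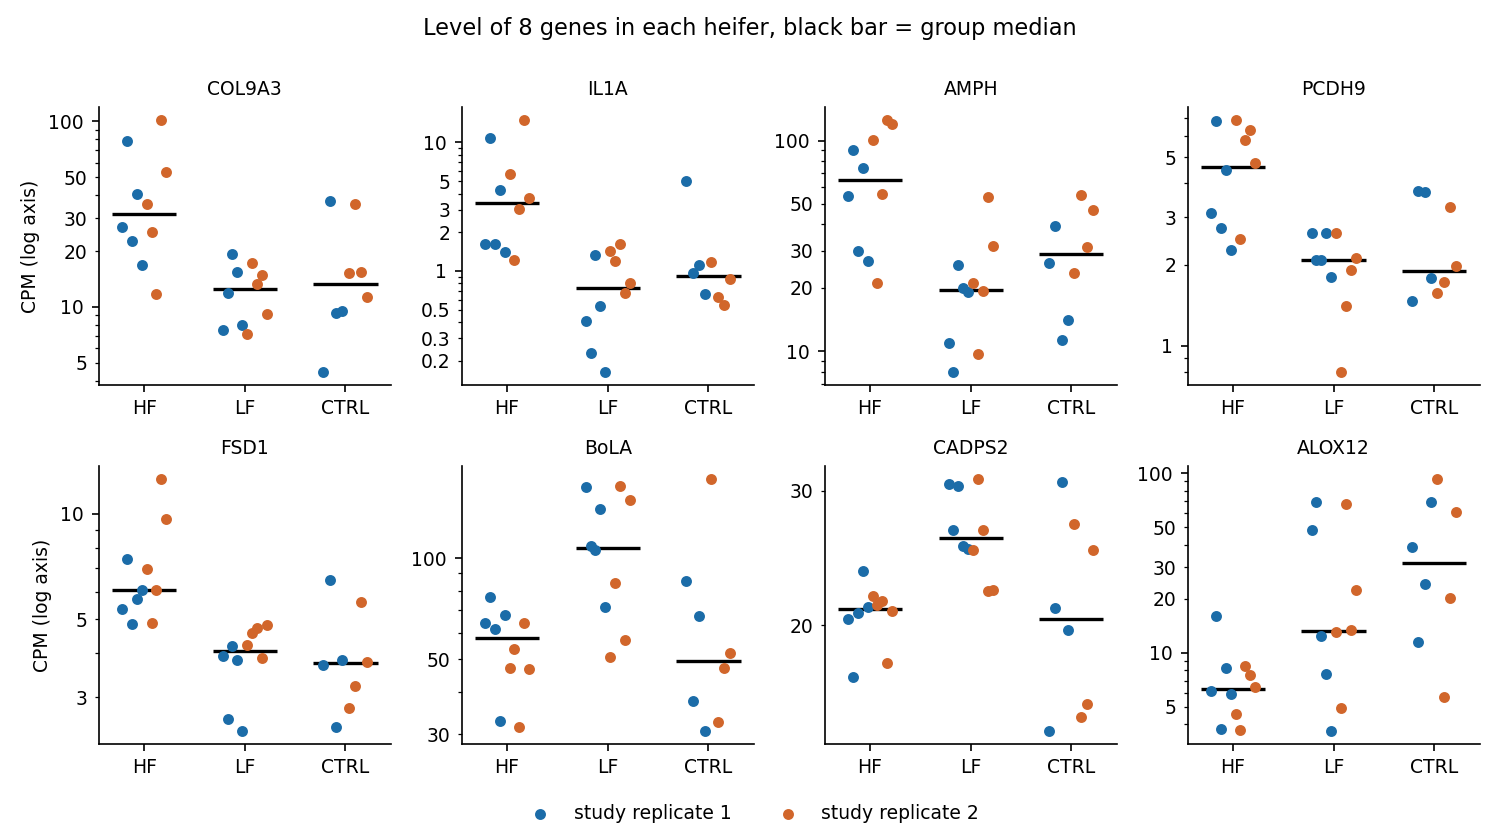
Each panel shows 1 gene, with normalized CPM on a log axis and 1 point per heifer in the HF (n = 10), LF (n = 10) and CTRL (n = 8) treatments, coloured by study replicate, and a black bar at each median. The HF medians of COL9A3, IL1A, AMPH, PCDH9 and FSD1 lie above the LF medians and those of BoLA, CADPS2 and ALOX12 below, and the HF and LF points of FSD1 do not overlap.

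A group of genes known mainly from neurons accounted for several of the called genes. AMPH (ENSBTAG00000031967) encodes amphiphysin, which bends membranes during clathrin-mediated endocytosis at nerve terminals. It stood at 21.0, 64.9 and 125.3 CPM in the lowest, median and highest HF heifer and at 7.97, 19.6 and 53.9 CPM in LF, where LF9 was the highest. All 10 HF heifers exceeded the LF median and 7 exceeded every LF heifer, and the DESeq2 fold was 3.18 (log2FC 1.67, SE 0.35, adjusted p = 0.00729). The log2FC was 1.72 and 1.64 in study replicates 1 and 2, and edgeR's adjusted p was 0.357. The CTRL heifers spanned 11.3 to 55.1 CPM with a median of 28.8 CPM, between the other treatments.

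PCDH9 (ENSBTAG00000019340), protocadherin 9, is a cadherin-family adhesion molecule of neurons. Levels were 2.26, 4.62 and 6.87 CPM in HF and 0.7998, 2.08 and 2.63 CPM in LF (lowest, median and highest), with 8 HF heifers above every LF heifer. DESeq2 gave a fold of 2.27 (log2FC 1.18, SE 0.25, adjusted p = 0.00658), with log2FC of 0.79 and 1.56 in study replicates 1 and 2. The median in CTRL was 1.89 CPM.

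FSD1 (ENSBTAG00000005999), which encodes a microtubule-associated protein, was the only gene of the 14793 tested whose HF and LF levels did not overlap (0.00676%). The 10 HF heifers stood at 4.85 to 12.6 CPM with a median of 6.07 CPM, and the 10 LF heifers at 2.40 to 4.82 CPM with a median of 4.08 CPM, so the gap between the closest heifers was narrow. DESeq2 called it with a fold of 1.77 (log2FC 0.83, SE 0.19, adjusted p = 0.0235), and lost the call without HF2 or HF10. CTRL heifers spanned 2.47 to 6.48 CPM, across the gap.

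The neural-type adhesion and vesicle list holds 28 genes, 10 of them with a name and 9 of these tested in edgeR. At an unadjusted p under 0.05, 6 of the 9 were higher in HF and 1 was lower, against 3.32% and 4.60% of all genes tested, and the median log2FC of the list was 0.83, against -0.03 for all genes tested. The list was drawn up with the study's findings on these heifers known. It holds genes that the study singled out in this comparison, so its count is no independent evidence. The same limit holds for other lists with such genes. Among them are COL9A3 (matrix), ALOX12 (prostaglandin and leukotriene), BoLA (class I) and LYN (Src family). Besides AMPH, PCDH9 and FSD1, the higher genes of the neural-type list were CNTN3, CADPS and RUNX1T1. FSD1 and RUNX1T1 are not adhesion or vesicle genes by the descriptions given here, so the list is broader than its title. CNTN3, a contactin adhesion molecule, had medians of 1.24 CPM in HF and 0.571 CPM in LF (edgeR log2FC 1.03, SE 0.35, adjusted p = 0.468). CADPS, a calcium-dependent activator of vesicle secretion, had medians of 3.44 and 0.730 CPM (log2FC 1.95, SE 0.72, adjusted p = 0.496), and these 2 genes were picked out after their values were seen. RUNX1T1, a transcriptional corepressor, had medians of 24.2 and 16.9 CPM (log2FC 0.70, SE 0.24, adjusted p = 0.486).

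The lower gene of that list was CADPS2 (ENSBTAG00000005110), the close relative of CADPS in regulated secretion. CADPS2 stood at 17.1, 21.0 and 23.6 CPM in HF and 22.2, 25.99 and 31.1 CPM in LF (lowest, median and highest). In 9 HF heifers it lay below every LF heifer. The DESeq2 fold was 1.29 (log2FC -0.37, SE 0.08, adjusted p = 0.0235, lost without LF1, HF2, HF9 or HF10). Its CTRL median of 20.4 CPM lay close to HF.

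Genes that handle arachidonic acid, the lipid from which prostaglandins, leukotrienes and other eicosanoids are made, had 1 called member, ALOX12. PLA2G4A, the cytosolic phospholipase A2 that releases arachidonic acid from membranes, stood at 20.7, 29.3 and 33.2 CPM in HF and 29.8, 39.1 and 65.7 CPM in LF. In 9 LF heifers it exceeded every HF heifer, with LF8 far above the rest, but the gene narrowly missed the DESeq2 threshold (1.47-fold lower, log2FC -0.55, SE 0.14, adjusted p = 0.0533). ALOX12 (ENSBTAG00000021933), arachidonate 12-lipoxygenase, was called 3.73-fold lower in HF (log2FC -1.90, SE 0.46, adjusted p = 0.0328). It stood at 3.71, 6.30 and 16.0 CPM in HF and 3.66, 13.3 and 69.0 CPM in LF, and its high values lay in 4 LF heifers above all of HF. The log2FC of ALOX12 was -1.83 in study replicate 1 and -1.996 in study replicate 2, and the call was lost without any 1 of 9 heifers (LF1, LF2, LF8, LF10, HF1, HF3, HF6, HF9 or HF10). In CTRL heifers ALOX12 reached 92.9 CPM with a median of 31.5 CPM, above both treatments with semen.

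PTGDS, a prostaglandin D synthase that is also a protein of seminal plasma, had levels of 224.1, 301.5 and 553.3 CPM in HF and 109.8, 194.4 and 424.9 CPM in LF. All 10 HF heifers exceeded the LF median, and the edgeR log2FC was 0.58 (SE 0.20, unadjusted p = 0.0101, adjusted p = 0.491). The prostaglandin E synthase gene PTGES (medians of 11.9 CPM in HF and 8.24 CPM in LF, edgeR adjusted p = 0.913) and the leukotriene A4 hydrolase gene LTA4H (medians of 72.7 and 79.3 CPM, adjusted p = 0.887) overlapped between treatments. RNPEP, an aminopeptidase related to LTA4H, was lower at 96.1, 107.5 and 158.6 CPM in HF against 122.5, 149.9 and 206.9 CPM in LF (edgeR log2FC -0.42, SE 0.11, unadjusted p = 0.000803, DESeq2 adjusted p = 0.0970). In all, 8 of 32 genes of the prostaglandin and leukotriene list had a name, with PTGDS higher and PLA2G4A and ALOX12 lower at an unadjusted p under 0.05 and a median log2FC of 0.32. Of all genes tested, 3.32% were higher and 4.60% lower at that p, and their median log2FC was -0.03.

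Called lower in HF were also BoLA, HSH2D and TRAPPC9. BoLA (ENSBTAG00000005182), a class I major histocompatibility heavy chain that shows peptides to T cells, stood at 31.5, 57.7 and 76.4 CPM in HF and 50.9, 107.1 and 164.3 CPM in LF. In 7 LF heifers it lay above every HF heifer. DESeq2 called it 2.003-fold lower (log2FC -1.002, SE 0.23, adjusted p = 0.0235), with log2FC of -0.96 and -1.06 in study replicates 1 and 2, and lost the call without LF1, LF4, LF10 or HF10. The CTRL median was 49.6 CPM, on the side of HF. Class I genes of cattle are near-identical copies that differ between animals, so reads may be split among them and the level of a single copy is uncertain. B2M, the invariant partner chain of class I molecules, had medians of 1005 CPM in HF and 1102 CPM in LF (edgeR log2FC -0.21, SE 0.17, adjusted p = 0.804). BoLA was the 1 gene at an unadjusted p under 0.05 among the 4 named of the class I list, all 4 of which had a log2FC below 0, where 4.60% of all genes tested were lower at that p and 56.8% were below 0.

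HSH2D (ENSBTAG00000038154), a signalling adaptor of blood cells, was called 2.26-fold lower in HF (log2FC -1.18, SE 0.28, adjusted p = 0.0328) at low levels of 0.195, 0.551 and 0.809 CPM in HF and 0.477, 1.23 and 2.25 CPM in LF. Those levels rest on 110 counts in all HF heifers and 240 in all LF heifers. TRAPPC9 (ENSBTAG00000013955), a vesicle-transport protein that also binds kinases of NF-kB signalling, stood at 20.2, 24.1 and 28.1 CPM in HF and 26.9, 32.3 and 45.1 CPM in LF, a fold of 1.37 (log2FC -0.45, SE 0.10, adjusted p = 0.0235). Its log2FC was -0.61 in study replicate 1 and -0.28 in study replicate 2. Without any 1 of 9 heifers for HSH2D (LF1, LF4, LF8, LF10, HF1, HF2, HF4, HF9 or HF10) or of 5 heifers for TRAPPC9 (LF2, HF1, HF2, HF9 or HF10), the DESeq2 call was lost.

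Among the Src family and proximal immune signalling genes, 4 had a name, all with a log2FC below 0 (56.8% of all genes tested). LYN and VAV1 passed an unadjusted p of 0.05 (4.60% of all genes in that direction). The study had reported LYN in this comparison of the same heifers, so the count is no independent evidence. LYN, a Src family kinase of myeloid and B cells, had medians of 18.5 CPM in HF and 21.1 CPM in LF (edgeR log2FC -0.30, SE 0.13, adjusted p = 0.593). VAV1, an exchange factor of blood cells, had medians of 10.6 and 14.0 CPM (log2FC -0.40, SE 0.14, adjusted p = 0.478). The summed level of the 4 named macrophage markers was 115 to 286 CPM in HF and 104 to 249 CPM in LF, and 0 of them passed an unadjusted p of 0.05. The 4 T and NK cell markers summed to 22.4 to 38.5 CPM in HF and 25.8 to 49.5 CPM in LF, and again 0 passed. VNN2, a neutrophil surface protein in humans, had medians of 1.995 CPM in HF and 2.81 CPM in LF and a single high LF heifer, LF10 at 23.0 CPM (edgeR log2FC -1.04, SE 0.49, adjusted p = 0.615). The part of these cell types in the levels of BoLA and HSH2D was not tested. Of 4 named interferon response genes 0 passed an unadjusted p of 0.05, with a median log2FC of -0.29, against -0.03 for all genes tested. Of 3 named chemokines likewise 0 passed.

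Of the named epithelial markers and junction genes, 0 passed an adjusted threshold. KRT8, the keratin of simple epithelia, stood at 79.3, 109.6 and 186.4 CPM in HF and at 115.2, 162.3 and 247.7 CPM in LF (edgeR log2FC -0.52, SE 0.15, unadjusted p = 0.00270, adjusted p = 0.450). ESRP1, a splicing regulator of epithelial cells, had medians of 60.0 CPM in HF and 82.8 CPM in LF (log2FC -0.32, SE 0.14, adjusted p = 0.571). These were the 2 named genes of 21 epithelial markers, and their summed level was 118 to 282 CPM in HF, with a median of 175 CPM, and 188 to 305 CPM in LF, with a median of 251 CPM. Of 6 named junction genes, all 6 had a log2FC below 0, as did 56.8% of all genes tested, and 2 passed an unadjusted p of 0.05, where 4.60% of all genes were lower. They were PKP3, a desmosomal plakophilin (medians of 22.4 CPM in HF and 32.7 CPM in LF, log2FC -0.50, SE 0.15, adjusted p = 0.450), and TJP3, a scaffold of tight junctions (medians of 36.6 and 47.8 CPM, log2FC -0.34, SE 0.14, adjusted p = 0.547). The mucin gene MUC20 had medians of 5.50 and 7.67 CPM (log2FC -0.73, SE 0.34, adjusted p = 0.615). WBSCR17 (ENSBTAG00000008718), of the enzyme family that starts the O-linked sugar chains of mucins, was called 1.84-fold lower (DESeq2 log2FC -0.88, SE 0.20, adjusted p = 0.0235), at 4.90, 8.39 and 16.2 CPM in HF and 9.46, 15.9 and 24.8 CPM in LF. That call was lost without LF1, LF2, LF10, HF2, HF9 or HF10. The 6 named markers of ciliated epithelium summed to 325 to 782 CPM in HF and 234 to 950 CPM in LF, with 0 past an unadjusted p of 0.05.

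Stromal and hormone-related genes were few among the names. The 4 named stromal markers all had an edgeR log2FC above 0 (median 0.265), as did 43.2% of all genes tested. Of these markers 1, HAND2, passed an unadjusted p of 0.05. Their summed level had a median of 4300 CPM in HF and 3930 CPM in LF, and the part of tissue make-up was not tested. TGFB3, a growth factor of the transforming growth factor beta family, stood at 25.8, 76.5 and 175.6 CPM in HF and 45.6, 49.4 and 86.8 CPM in LF (edgeR log2FC 0.69, SE 0.23, adjusted p = 0.468). HAND2, a transcription factor of the uterine stroma that progesterone induces in mice, had medians of 59.7 CPM in HF and 48.2 CPM in LF (log2FC 0.42, SE 0.18, adjusted p = 0.570). The ERK phosphatase gene DUSP5 had medians of 6.98 and 10.4 CPM (log2FC -0.76, SE 0.26, adjusted p = 0.468), and the chaperone gene DNAJC3 medians of 46.3 and 61.5 CPM (log2FC -0.33, SE 0.11, adjusted p = 0.478). RCC2, a regulator of chromosome segregation, had 8 LF heifers above every HF heifer, at 78.0, 95.7 and 100.5 CPM in HF and 83.6, 117.2 and 137.8 CPM in LF (log2FC -0.31, SE 0.09, adjusted p = 0.441). It was the 1 of 5 named cell cycle genes past an unadjusted p of 0.05, where 4.60% of all genes tested were lower.

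The other named genes called higher in HF were PKD2 and TMEM136. PKD2 (ENSBTAG00000020031), polycystin 2, a cation channel of the primary cilium, stood at 121.3, 155.9 and 185.0 CPM in HF and 92.0, 125.7 and 135.0 CPM in LF, with 9 HF heifers above every LF heifer (DESeq2 fold 1.29, log2FC 0.37, SE 0.09, adjusted p = 0.0259). Its log2FC was 0.49 in study replicate 1 and 0.24 in study replicate 2, and the call was lost without LF1, HF1, HF2, HF9 or HF10. TMEM136 (ENSBTAG00000021342), a transmembrane protein, stood at 8.25, 12.3 and 16.8 CPM in HF and 4.62, 7.69 and 10.1 CPM in LF (fold 1.58, log2FC 0.66, SE 0.15, adjusted p = 0.0235), and this call was lost without LF2, HF2, HF9 or HF10. Below the threshold, the zinc finger gene ZNF711 (medians of 33.7 CPM in HF and 25.0 CPM in LF, DESeq2 adjusted p = 0.106), the Ras-association gene RASSF8 (54.0 and 33.7 CPM, adjusted p = 0.0970), the clathrin adaptor gene AP1S2 (36.0 and 27.8 CPM, adjusted p = 0.170) and PHTF2 (25.3 and 17.7 CPM, adjusted p = 0.368) had higher values in HF. The homeobox gene HOXC4 had a lower value (2.70 and 4.09 CPM, adjusted p = 0.110).

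The widest folds belonged to genes that were high in a few heifers. AHSG (ENSBTAG00000000522), fetuin-A, a plasma glycoprotein made by the liver, was counted 121 times over all LF heifers and 4 times over all HF heifers, of which 7 were at 0. The ratio of counts per total was 30.6-fold higher in LF (exact 95% interval 11.7 to 114, which covers counting error only), and DESeq2's fitted fold of 29.6 (adjusted p = 0.00729) rests on those 4 counts. The LF level came mainly from LF8 at 2.42 CPM, LF2 at 1.21 CPM, LF1 at 0.951 CPM and LF3 at 0.925 CPM, and CTRL3 reached 2.24 CPM. AHSG was too low for the edgeR filter.

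A like pattern was seen in 3 IDs without a name. ENSBTAG00000021077 was called 22.6-fold lower in HF (DESeq2 log2FC -4.50, SE 0.87, adjusted p = 0.00141), and the difference lay in 4 LF heifers, LF8 at 35.5, LF7 at 35.0, LF1 at 16.1 and LF10 at 16.0 CPM, while the LF median was 1.36 CPM and no HF heifer exceeded 0.867 CPM. CTRL8, which received no semen, stood at 14.7 CPM. ENSBTAG00000021565 was called 40.2-fold higher in HF (log2FC 5.33, SE 1.32, adjusted p = 0.0427) from HF10 at 24.9, HF1 at 17.3 and HF4 at 14.4 CPM, while the other HF heifers were as low as LF (median 0.0888 CPM in HF and 0.114 CPM in LF). CTRL1 and CTRL7 were high as well, at 14.5 and 20.5 CPM. Without HF1, HF4 or HF10 the DESeq2 log2FC of this ID turned to -1.09, -1.08 and -1.09 in turn. The other high HF heifers stayed in each of these fits, so the mean count itself stayed higher in HF. DESeq2's default outlier handling was on, and its part in the sign was not tested. ENSBTAG00000047700 was called 13.0-fold higher (log2FC 3.70, SE 0.88, adjusted p = 0.0328) from HF5 at 186.9 CPM and HF9 at 77.7 CPM, although LF7 stood at 81.4 CPM. The mean levels were 28.1 CPM in HF and 8.78 CPM in LF, a smaller difference than the DESeq2 fold. With DESeq2's outlier handling off, a setting chosen after the data were seen, the adjusted p was 0.745. In edgeR the log2FC of ENSBTAG00000047700 was 1.68 (SE 1.33, adjusted p = 0.797), and in study replicate 2 its DESeq2 log2FC was -0.02. Each of these 3 IDs thus had at least 1 high value in the other treatment or in CTRL.

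**Figure D3:**
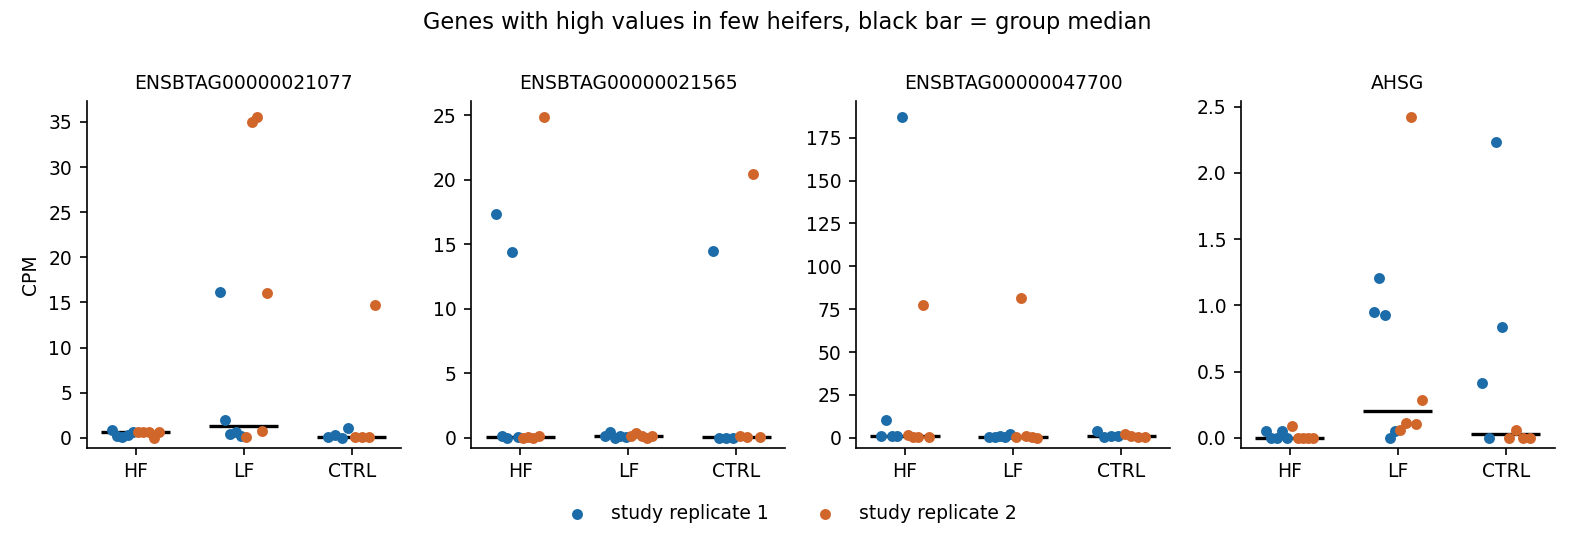
Each panel shows 1 gene, with normalized CPM on a linear axis and 1 point per heifer in HF (n = 10), LF (n = 10) and CTRL (n = 8), coloured by study replicate, and a black bar at each median. Most heifers lie near 0 and a few stand far above, such as LF8 at 35.5 CPM for ENSBTAG00000021077 and HF5 at 186.9 CPM for ENSBTAG00000047700.

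The other 9 called IDs without a name had smaller folds. Higher in HF were ENSBTAG00000004411 (medians of 105.2 CPM in HF and 56.9 CPM in LF, fold 1.95), ENSBTAG00000001847 (25.0 and 17.4 CPM, fold 1.40), ENSBTAG00000007772 (26.6 and 19.2 CPM, fold 1.35) and ENSBTAG00000003035 (67.3 and 57.5 CPM, fold 1.19). Lower were ENSBTAG00000039289 (medians of 0.588 and 2.21 CPM, fold 9.82, with LF8 at 31.6 CPM), ENSBTAG00000000128 (0.771 and 2.15 CPM, fold 3.51), ENSBTAG00000046158 (10.8 and 20.1 CPM, fold 2.49), ENSBTAG00000013368 (3.81 and 6.69 CPM, fold 1.85) and ENSBTAG00000014806 (106.0 and 158.9 CPM, fold 1.53). The DESeq2 adjusted p of these 9 was 0.0235 to 0.0499, and with 1 heifer left out they were called in 5 to 14 of 20 fits each.

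Single heifers weighed on the called genes. HF9 was the highest HF heifer for 7 of the 13 genes higher in HF, and HF7 the lowest for 7 of the same 13. On the LF side, LF8 was the highest LF heifer for 7 of the 13 genes lower in HF. With 1 heifer left out in turn, DESeq2 called between 7 genes (without HF10) and 158 genes (without HF7). The count fell to 8 without HF9, 9 without HF2, 12 without LF1 or LF10, 15 without LF2 and 17 without HF1, and it went up to 40 without LF5, 74 without LF9 and 101 without LF7. Of the 26 genes, 6 were called in all 20 of these fits (COL9A3, IL1A, PCDH9, AMPH, AHSG and ENSBTAG00000021077), and edgeR called 0 genes in each.

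**Figure D4:**
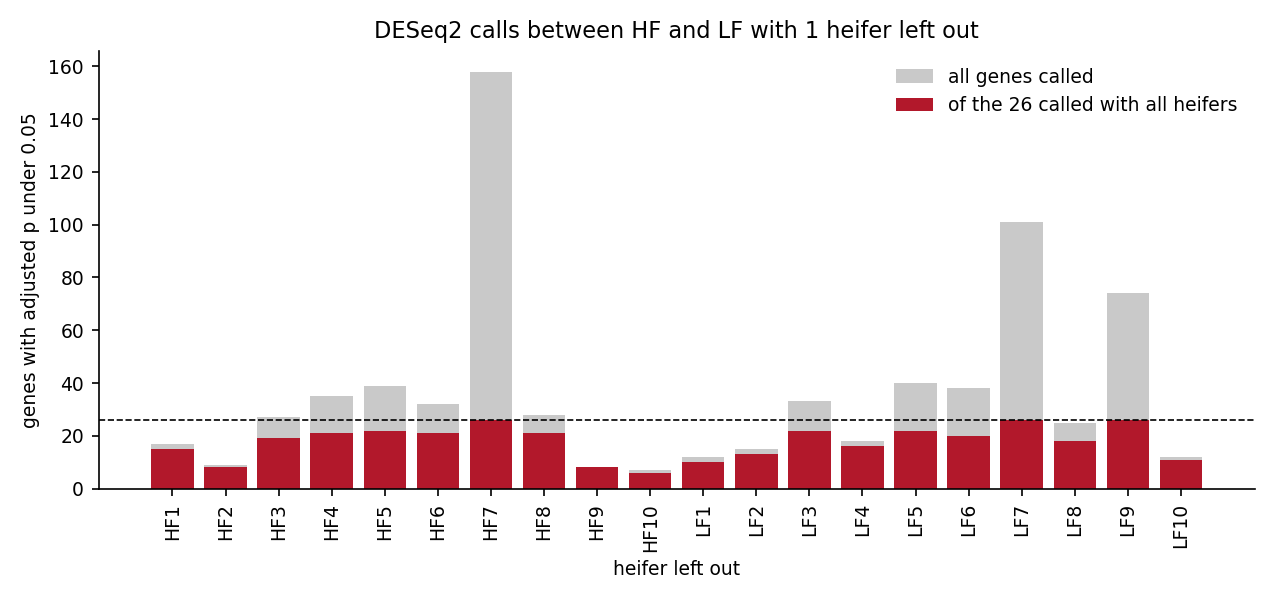
Bars give the number of genes with a DESeq2 adjusted p under 0.05 after leaving out the heifer named on the x axis, in grey for all genes and in red for those among the 26 called with all 20 heifers (dashed line). Counts run from 7 without HF10 to 158 without HF7.

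Most heifers that shared a bull did not deviate together. After the treatment means were removed, the correlation of the 2 heifers of a bull was above 0 for 2 of the 10 bulls and ranged from -0.68 to 0.28, and the consensus correlation within bulls was -0.21. The 2 heifers of each bull were in different study replicates, whose means were not removed. Any difference between study replicates lowers these correlations, so they cannot show whether heifers of a bull shared an effect. For 19 of the 26 called genes the means of the 5 HF bulls did not overlap those of the 5 LF bulls, as for 305 of all 14793 genes tested in edgeR (2.06%), but the 26 were chosen for their difference in these same heifers, which largely fixes this count. With counts added up per bull, 5 bulls against 5, DESeq2 called 228 genes, 24 of the 26 among them, and edgeR called 0.

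Study replicates, which held different heifers of the same bulls, gave the same sign of log2FC for 25 of the 26 genes, with an unadjusted DESeq2 p under 0.05 for 24 in study replicate 1 and 19 in study replicate 2. Both study replicates helped to choose these 26 genes, so this is a description. Taken alone, study replicate 1 gave 73 called genes of 15535 (0.470%) and study replicate 2 gave 3 of 18666 (0.0161%). Mean smooth muscle level (mean log2 CPM of the 8 named markers) was higher in HF in study replicate 1 and lower in HF in study replicate 2, with overlapping ranges. In study replicate 1 the 5 HF heifers averaged 6.40 with an SD of 0.94 and the 5 LF heifers 5.37 with an SD of 0.76. The averages in study replicate 2 were 5.69 for HF (SD 1.06) and 6.36 for LF (SD 1.13), and its part in the counts was not tested. The 73 genes were then looked up in study replicate 2, which had no part in choosing them: 49 (67.1%) had the same direction there, against 59.5% of all genes, and 6 had the same direction with an unadjusted p under 0.05, where 2.19% of all genes did. Of the 3 genes called in study replicate 2, 2 had a value in study replicate 1, both with the same direction and 0 with an unadjusted p under 0.05. By a rule equal for both, 99 of the 100 genes with the smallest p in study replicate 1 had a value in study replicate 2, where 65 (65.7%) had the same direction and 7 also an unadjusted p under 0.05. In the other direction, 97 of the 100 genes with the smallest p in study replicate 2 had a value in study replicate 1, and 76 of them (78.4%) had the same direction and 18 also an unadjusted p under 0.05, where 5.10% of all genes did. The interaction of treatment and study replicate, a test chosen after the data were seen, had an adjusted p under 0.05 for 0 of 14793 genes in edgeR (smallest 0.9998) and an unadjusted p under 0.05 for 367 (2.48%).

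**Figure D5:**
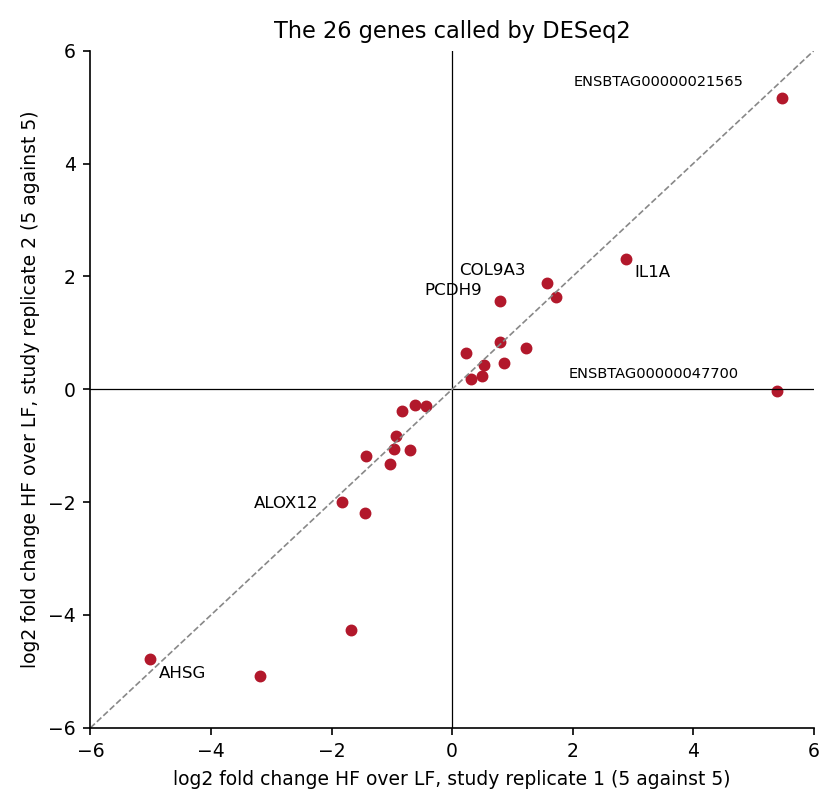
Each point is 1 of the 26 genes called by DESeq2, with its log2 fold change (HF over LF) in study replicate 1 on the x axis and in study replicate 2 on the y axis, 5 heifers against 5 in each, and a dashed line of equal values. ENSBTAG00000047700 is the 1 gene with opposite signs, at 5.38 and -0.02.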

How the data were processed

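The authors aligned trimmed reads to the bovine genome ARS-UCD1.2 and deposited raw counts of uniquely mapped reads per Ensembl gene ID, 24596 IDs per heifer without names or normalization. Subread 1.6.3 and STAR 2.6.1b are the tools in the submitters' processing notes. Libraries were stranded, but how strand entered the counting was not found in the labels or methods. Reads of overlapping or antisense genes may therefore be shared. Non-coding genes, which the paper removed, were kept. Breed, bull and study replicate came from the study's animal table. Names came from the paper's gene tables and from 1685 rows at hand of its LF against CTRL results, 1522 IDs in all. That sheet is sorted by p and shares the LF heifers, so names lean to genes that differ in LF. An unadjusted edgeR p under 0.05 was found for 10.4% of 1495 named genes and 7.64% of 13298 others. Gene lists count named genes only, so shares of all genes tested are not a matched background for them. No sequence or coordinate was used.

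In R 4.3.3, the main test was edgeR 4.0.16 (TMM, filterByExpr with a minimum count of 10, glmQLFTest, Benjamini-Hochberg adjusted p under 0.05) on the 20 heifers without covariates. The SE of its log2FC is the log2FC over the square root of F. DESeq2 1.42.0 with default filtering and outlier handling was the first alternative, and limma 3.58.1 gave voom fits. Both tests were first run on a single simulated data set with the group and library sizes of this design but no shared bulls. Its counts were drawn at edgeR's estimates of spread. There the false share of DESeq2's calls was above its nominal level and that of edgeR's was not. The DESeq2 calls should be read with that limit. edgeR recovered fewer of the changed genes than DESeq2 did, which limits what its lack of calls can show. CPM are TMM-normalized. Principal components used variance stabilised counts, and their permutation test drew 100000 resamples. Genes were named if called by edgeR or DESeq2, among the 10 named genes with the smallest edgeR p in each direction, not overlapping between treatments, on a list of key genes, or among the 4 smallest p of a gene list. The comparison, the lists and the tests were chosen with earlier results of these data known. The heifers are separate animals, but 2 share each bull, and p-values over heifers take them as independent.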

Additional observations from a re-analysis of the deposited data

Results flagged for a closer look

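Among the genes given in the report, 110 groups of 10 heifers were examined for a heifer far from the others, and 22 had one (a gap to the nearest heifer, relative to the group's range, above Dixon's 95% critical value). Chance alone flags about 1 in 20 groups if values are normally distributed. The gaps were taken on CPM without a log, where high values stand out more, so that rate may not hold here. The genes were also named partly for their differences. LF8 stood apart for AHSG (2.42 CPM, next 1.21), ENSBTAG00000039289 (31.6 CPM, next 7.39), ENSBTAG00000013368 (14.6 CPM, next 8.62), ENSBTAG00000000128 (9.01 CPM, next 3.26) and PLA2G4A (65.7 CPM, next 44.6), and was the lowest LF heifer for IRAK2 (7.43 CPM, next 13.2). LF7 was highest in LF for ENSBTAG00000047700 (81.4 CPM, next 2.08), VAV1 (21.9 CPM, next 15.8) and PTGDS (424.9 CPM). LF9 stood at 53.9 CPM for AMPH and 86.8 CPM for TGFB3, LF10 at 23.0 CPM for VNN2 and LF2 at 22.3 CPM for MUC20. In HF, HF4 was highest for CADPS (12.2 CPM), VAV1 (15.9 CPM), MUC20 (14.3 CPM), HOXC4 (4.49 CPM) and ENSBTAG00000013368 (6.78 CPM), HF5 for ENSBTAG00000047700 (186.9 CPM), HF2 for ALOX12 (16.0 CPM), HF9 for PTGDS (553.3 CPM) and HF7 for DUSP5 (13.3 CPM).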

How the results depend on the processing

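edgeR called 0 genes under the RLE size factors, no filter or a stricter filter on low counts, the covariates, summed bulls, either study replicate alone, an adjusted p under 0.1, each heifer left out and both limma-voom fits, and DESeq2 called 26. The DESeq2 count was 41 with smooth muscle level as covariate, 228 with bulls summed, 73 and 3 in study replicates 1 and 2 alone, and 55 at an adjusted p under 0.1. It was 28 with study replicate and 29 with breed as a covariate, and 36 without outlier handling, a setting chosen after the data were seen. With a replicate block on the numbers 1 to 10 of the labels it was 103 and edgeR's 0. Same-numbered heifers shared a study replicate, and no other link between them was found in the labels or animal table. They had a correlation of deviations over 0.1 in 5 of 10 pairs (-0.49 to 0.41), and 0 of the 10 HF heifers correlated best with their own number. Leaving out 1 heifer gave 7 to 158 genes. Of the 26 genes, 23 were called with study replicate, 23 with breed, 25 with smooth muscle level, 21 with the replicate block and 24 with summed bulls. Without outlier handling 25 of the 26 were called. ENSBTAG00000047700 was lost in all of these settings. The first-component difference ran from -1.39 to 5.03 over the heifers left out, 4.38 with 2000 genes and 2.75 on log2 CPM.

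Of the edgeR log2FC given in the text, 2 changed sign. ENSBTAG00000047700 was at -0.039 in study replicate 2 alone. IL1R1, at -0.07 with all heifers, was at 0.033 with the replicate block, 0.065 with and 0.064 without the bull block in limma-voom and 0.11 in study replicate 1, and ran from -0.20 to 0.022 with 1 heifer left out. The DESeq2 log2FC of ENSBTAG00000021565 was -1.09, -1.08 and -1.09 without HF1, HF4 and HF10, and ran up to 5.70 with other heifers left out. The cause, including the part of DESeq2's default outlier handling, was not tested. Of 520 DESeq2 values of the 26 genes with a heifer left out, 166 no longer passed the threshold. Genes below about 1 CPM, such as HSH2D, AHSG and, in LF heifers, IL1A, rest on few counts per heifer, which limits their folds.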
